A study of Mus musculus with 8 samples.

Results

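The 9 genes described here are those of the angiotensin system and the membrane peptidases that process its hormones, namely *Agt*, *Ace*, *Enpep*, *Anpep*, *Mme*, *Dpp4*, *Agtr1a*, *Agtr2* and *Lnpep*, out of 54532 genes with deposited counts. They were chosen by gene function with earlier results of the same comparison known, among them the low *Enpep* counts after TGF-β1, so their differences between the groups, and their calls in the fit across all genes, are given as a description and not as a test of the members. RNA came from primary pericyte cultures of wild-type mouse brain, 4 given vehicle and 4 given TGF-β1 (5 μg/mL as labelled), all for 48 h, with 1 total-RNA library per culture. The unit of this dose is printed as the labels give it and could not be checked from the data. TGF-β1 is a secreted cytokine, and pericytes are the mural cells of capillaries. Cells had been released from brain with papain and expanded over passages, first in endothelial and then in pericyte medium, so the cultures are models of expanded rather than freshly isolated cells. The age of the mice was not given in the labels.

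Angiotensinogen, the product of *Agt*, is cut by renin to angiotensin I, from which angiotensin-converting enzyme (*Ace*) removes a dipeptide to give angiotensin II, a constrictor of vessels. Aminopeptidase A (*Enpep*) then removes the first residue, an aspartate, to give angiotensin III, and aminopeptidase N (*Anpep*, CD13) the next, an arginine, to give angiotensin IV. *Enpep* and *Anpep* are also used as markers of pericytes in brain, where the pericyte surface carries both enzymes, and both belong to the M1 family of zinc aminopeptidases. The peptidases listed are membrane enzymes whose active site faces away from the cytosol.

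The substrate of this pathway is encoded by 10 codons in exon 2 of *Agt* (GRCm38, chr8:124564450-124564479, minus strand). They are shown 5′ to 3′ because the steps of *Ace*, *Enpep* and *Anpep* described above act on the peptide of this stretch. The capitals mark the first codon, for the aspartate that aminopeptidase A removes, and the last codons, for the dipeptide that *Ace* removes.
Agt, angiotensin I codons: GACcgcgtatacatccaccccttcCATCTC

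The 250 bases before the RefSeq start (GRCm38.p6) are shown for *Enpep*, *Agt* and *Ace*, the members with the largest differences between the groups. The windows are chr3:129332750-129332999 on the minus strand for *Enpep*, chr8:124569707-124569956 on the minus strand for *Agt*, and chr11:105967698-105967947 on the plus strand for the first of the *Ace* starts. Capitals mark TATAAA or its reverse complement TTTATA.
Enpep: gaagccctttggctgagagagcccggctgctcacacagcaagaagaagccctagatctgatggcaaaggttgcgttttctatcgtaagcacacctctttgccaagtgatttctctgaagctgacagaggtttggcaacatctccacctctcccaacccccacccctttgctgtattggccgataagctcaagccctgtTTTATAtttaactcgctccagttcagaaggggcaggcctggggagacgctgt
Agt: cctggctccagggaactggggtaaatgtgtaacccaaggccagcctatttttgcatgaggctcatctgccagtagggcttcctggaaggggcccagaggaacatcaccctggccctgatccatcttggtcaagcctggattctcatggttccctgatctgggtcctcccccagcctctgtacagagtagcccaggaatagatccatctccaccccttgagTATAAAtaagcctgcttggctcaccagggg
Ace: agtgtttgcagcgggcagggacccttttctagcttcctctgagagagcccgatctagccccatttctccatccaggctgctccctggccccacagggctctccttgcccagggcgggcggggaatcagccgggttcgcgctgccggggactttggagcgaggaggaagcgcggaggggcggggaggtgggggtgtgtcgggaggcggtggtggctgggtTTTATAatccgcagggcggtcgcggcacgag

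The first base of this motif lay 52 bases before the start in *Enpep*, 31 in *Ace* and 30 in *Agt*. With both strands searched, it was present in 4 of the 11 windows found for 8 of the 9 members (the fourth was that of *Dpp4*), and in 12.4% of the 32851 RefSeq windows of the same length. CAGAC or GTCTG, the short Smad motif, was found in 2 of the 11 windows, those of *Anpep* and the second start of *Mme*, against 42.2% of all windows. The palindrome GTCTAGAC, which holds neither of those words, was in 0 of the 11 and in 0.167% of all windows. These matches describe the letters of the windows only.

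Library totals lay between 45255235 and 47651397 counts and did not separate the groups (exact two-sided permutation test, p = 0.857, where 0.0286 is the smallest p that 4 against 4 cultures allow). At this depth 3 counts in a culture correspond to 0.0630 to 0.0663 CPM (counts scaled to a common library size, here with TMM, trimmed mean of M-values, factors). Levels are given below in CPM as mean ± SD over 4 cultures, and differences as edgeR log2 fold changes of TGF-β1 over vehicle ± SE. Counts between 1 and 20 were even in 68.5% to 70.2% of cases per culture, so a count of 2 may be 1 fragment. The labelled cell type was checked against its markers. *Pdgfrb* (202 ± 5.43 CPM in vehicle) and *Cspg4* (82.8 ± 2.49) were well detected, and *Rgs5* was at 8.61 ± 0.466 CPM. Of the 14 pericyte markers listed, 11 had enough counts to be tested. *Kcnj8* had at most 2 counts in any culture, *Vtn* at most 6 and *Abcc9* at most 9, and with vehicle *Higd1b* was at 0.278 CPM, *Des* at 0.684 and *Atp13a5* at 0.723.

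Of the 9 members, 7 had enough counts to enter the fit, and *Agtr1a* and *Agtr2* did not. Among the 7, 6 were called lower after TGF-β1, beside 20.3% of all 22544 genes fitted, and 1, *Dpp4*, was called higher, beside 20.9% of all genes. The vehicle and TGF-β1 cultures did not overlap for 6 of the 7, beside 37.9% of all genes. The median log2 fold change over the 7 was −0.70, against −0.01 over all genes fitted. Since the members were chosen with this contrast known, nothing is read from these shares.

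**Figure D1:**
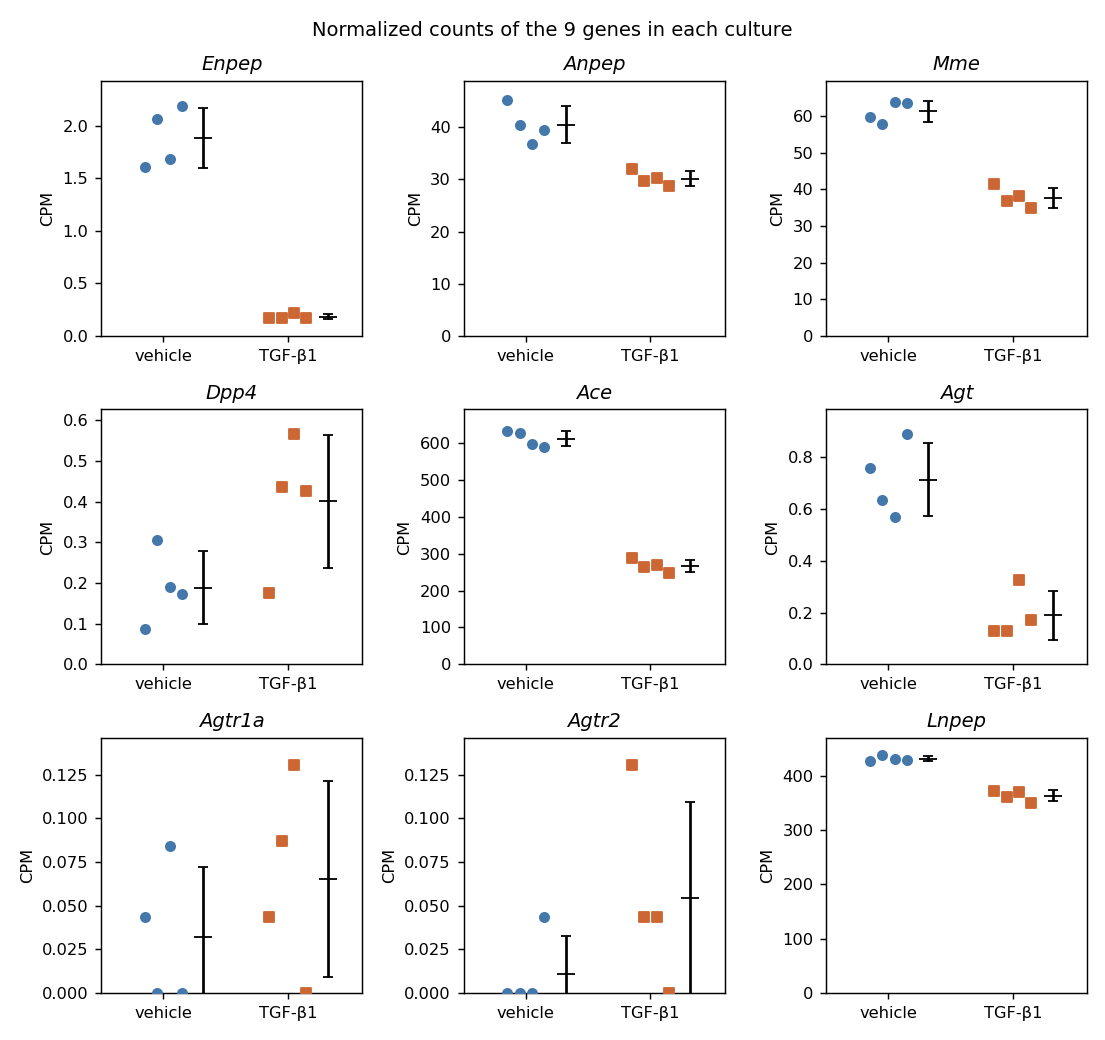
CPM of each of the 9 genes (y axis, linear and starting at 0) in 4 vehicle cultures (circles) and 4 TGF-β1 cultures (squares), with the mean and SD of each group beside the points. For *Enpep*, *Anpep*, *Mme*, *Ace*, *Agt* and *Lnpep* every TGF-β1 culture lies under every vehicle culture, and for *Dpp4*, *Agtr1a* and *Agtr2* the groups overlap.

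The precursor gene *Agt* (ENSMUSG00000031980, GRCm38 chr8:124556534-124569706, minus strand) was scarce in vehicle cultures, with 35, 29, 27 and 41 counts, and scarcer after TGF-β1, with 6, 6, 15 and 8. The groups did not overlap, but TGF-β1 replicate 7 with 15 counts stood above the other 3. In CPM the level was 0.712 ± 0.141 with vehicle and 0.190 ± 0.0935 with TGF-β1, which is 26.9% of vehicle on the fitted scale. The log2 fold change of −1.89 ± 0.35 was the largest but one among the members, and the fall ranked 104 among the 22544 genes fitted. In this bulk RNA, fewer cells that express a gene and less RNA in each cell cannot be told apart, here or for any member below.

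*Ace* (ENSMUSG00000020681, chr11:105967945-105989964, plus strand), which makes angiotensin II, was the most abundant member. Its counts were 29090, 28580, 28408 and 27195 with vehicle and 13152, 12082, 12382 and 11617 with TGF-β1. The lowest vehicle culture was thus above every TGF-β1 culture, and the spread within a group was small, with 611 ± 20.9 CPM against 267 ± 16.5. The log2 fold change was −1.20 ± 0.04, so the TGF-β1 cultures held 43.7% of the vehicle level. Of all genes fitted, 651 had a log2 fold change of −1 or below, and *Ace*, with *Enpep* and *Agt*, was among them. A share of 5.58% of its exon bases overlaps a gene on the other strand (*Gm11651*), and the strand setting of the counting was not stated.

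*Enpep* (ENSMUSG00000028024, chr3:129269175-129332720, minus strand), whose product turns angiotensin II into angiotensin III, showed the largest difference of the members. It had 74, 94, 80 and 101 counts in the vehicle cultures and 8, 8, 10 and 8 in the TGF-β1 cultures. All TGF-β1 cultures were within 2 counts of each other and far below the lowest vehicle culture. The level went from 1.88 ± 0.284 CPM to 0.184 ± 0.0227 CPM, or 9.91% of vehicle, a log2 fold change of −3.34 ± 0.25. This was the seventh largest fall of all genes fitted. The remaining 8 to 10 counts were above the 3 counts used as the floor here, so *Enpep* RNA was still detected in each TGF-β1 culture.

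*Anpep* (ENSMUSG00000039062, chr7:79821803-79861059, minus strand), the next aminopeptidase of the pathway and the other pericyte marker among the members, differed far less. Its counts were 2086, 1843, 1751 and 1818 with vehicle and 1467, 1360, 1385 and 1349 with TGF-β1, without overlap. The means were 40.4 ± 3.52 and 30.1 ± 1.39 CPM, 74.5% of vehicle, with a log2 fold change of −0.43 ± 0.05. Vehicle replicate 1 was the highest culture, and without it the groups were still apart. So the enzymes that act in turn on angiotensin II had log2 fold changes of −3.34 and −0.43, on levels of 1.88 and 40.4 CPM with vehicle.

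*Lnpep* (ENSMUSG00000023845, chr17:17521410-17625050, minus strand) encodes the insulin-regulated aminopeptidase, which binds angiotensin IV, and belongs to the same M1 family as *Enpep* and *Anpep*. It had 19707, 20010, 20521 and 19792 counts with vehicle and 17040, 16597, 16952 and 16450 with TGF-β1. Its difference was the smallest of the 7 genes, 431 ± 5.07 against 363 ± 9.93 CPM, with a log2 fold change of −0.25 ± 0.02. Even so the groups did not overlap, since the cultures of each group lay close together. The median size of a log2 fold change over all genes fitted, either direction, was 0.18.

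*Mme* (ENSMUSG00000027820, chr3:63241537-63386030, plus strand) encodes neprilysin, which cleaves many small peptides, angiotensin I and bradykinin among them. Its counts were 2759, 2642, 3029 and 2940 with vehicle and 1896, 1691, 1746 and 1638 with TGF-β1. The TGF-β1 cultures lay together below the vehicle cultures, at 37.8 ± 2.73 against 61.3 ± 2.88 CPM, or 61.6% of vehicle, a log2 fold change of −0.70 ± 0.04. A share of 0.402% of its 50-base words also occurs in transcripts of other genes.

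*Dpp4* (ENSMUSG00000035000, chr2:62330073-62412231, minus strand) encodes the dipeptidyl peptidase that trims peptides after a proline or alanine. It was barely detected, with 4, 14, 9 and 8 counts in vehicle and 8, 20, 26 and 20 in TGF-β1 cultures. The groups overlapped, since TGF-β1 replicate 5 had fewer counts than vehicle replicates 2 and 3. Its mean was 0.189 ± 0.0905 CPM with vehicle and 0.400 ± 0.164 with TGF-β1, with a log2 fold change of 1.07 ± 0.41. The call as higher was lost with DESeq2 and when any of 6 of the 8 cultures was left out.

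The receptor genes were close to the limit of detection. *Agtr1a* (ENSMUSG00000049115, chr13:30336441-30382867, plus strand), the main rodent gene of the AT1 receptor, had 2, 0, 4 and 0 counts with vehicle and 2, 4, 6 and 0 with TGF-β1. *Agtr2* (ENSMUSG00000068122, chrX:21484544-21489164, plus strand), for the AT2 receptor, had 0, 0, 0 and 2 counts with vehicle and 6, 2, 2 and 0 with TGF-β1. No culture exceeded 0.131 CPM for either gene. A difference between the groups was not detectable at this depth. The second AT1 receptor gene, *Agtr1b*, had at most 3 counts in any culture, and 1.23% of the 50-base words of *Agtr1a* also occur in other genes, *Agtr1b* among them.

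To compare levels between genes, CPM were divided by the length of the merged exons in kb. With vehicle, *Ace* stood at 115.5 CPM per kb, followed by *Lnpep* (30.5), *Anpep* (9.78), *Mme* (5.31), *Enpep* (0.400), *Agt* (0.377) and *Dpp4* (0.0299). Each of the first 4 exceeded the next in every vehicle culture, while the ranges of *Enpep* (0.341 to 0.465) and *Agt* (0.300 to 0.469) overlapped. With TGF-β1 the order of the first 4 was the same, from *Ace* at 50.4 to *Mme* at 3.27 CPM per kb. *Enpep* (0.0361 to 0.0463) then lay below *Agt* (0.0690 to 0.173) in every culture and overlapped with *Dpp4* (0.0276 to 0.0897). Among all genes fitted, 99.1% had a lower vehicle level than *Ace* and 17.1% a lower one than *Enpep*.

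**Figure D2:**
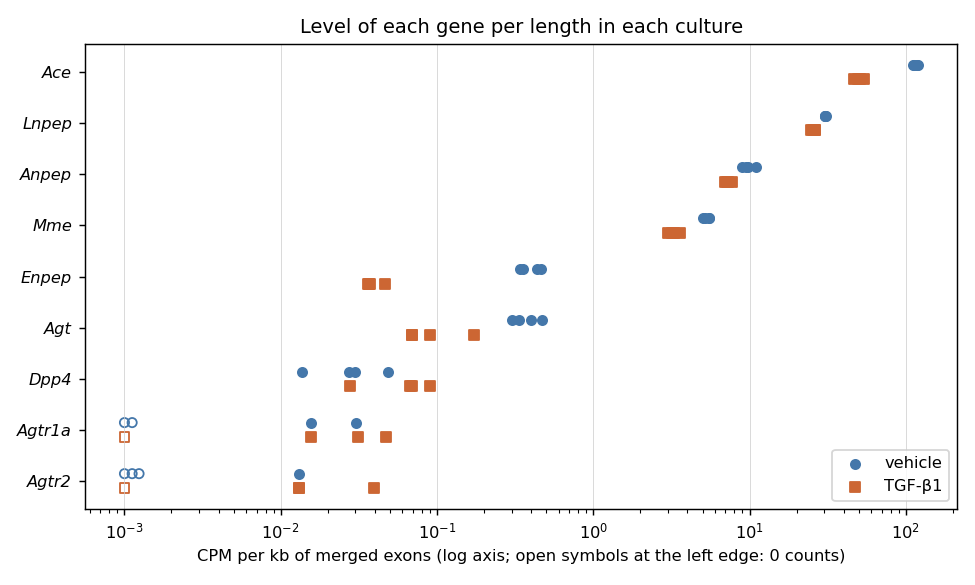
CPM per kb of merged exons (x axis, log scale) for each gene (rows) in 4 vehicle cultures (circles) and 4 TGF-β1 cultures (squares), with cultures at 0 counts drawn as open symbols at the left edge. *Ace*, *Lnpep*, *Anpep* and *Mme* keep their order in both groups, while *Enpep* moves from beside *Agt* at 0.400 CPM per kb to 0.0391.

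**Figure D3:**
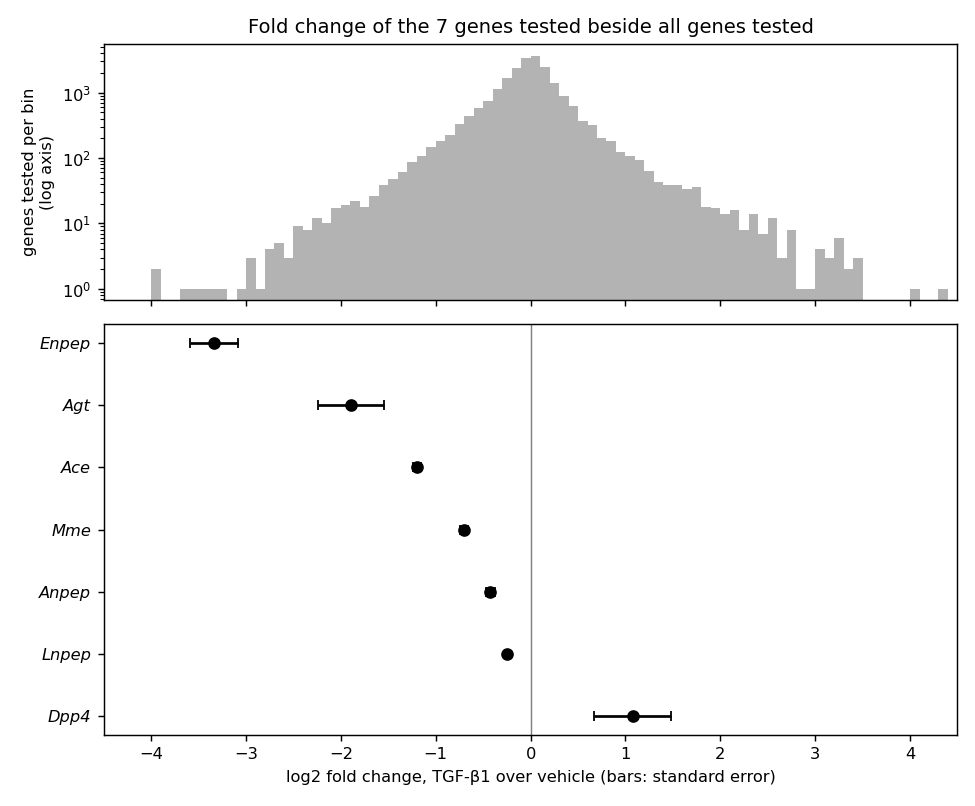
Log2 fold changes of TGF-β1 over vehicle (x axis) for the 7 members fitted, as points with standard errors (lower panel), under the distribution of all 22544 genes fitted (upper panel, log axis, bins of equal width). *Enpep* at −3.34 lies in the sparse left tail, and *Lnpep* at −0.25 lies in the dense centre.

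By the root mean square difference of centred log2 CPM over the 8 cultures, the profiles most like that of *Enpep* among 16479 genes of at least 1 CPM were those of *Slc17a8*, *Ptgds* and *Ptn*. *Slc17a8*, a vesicular glutamate transporter gene, differed from it by 0.162 and went from 53.3 to 6.95 CPM. *Ptgds*, a prostaglandin D synthase gene, differed by 0.191 (31.1 to 3.29 CPM), and *Ptn*, which encodes the growth factor pleiotrophin, by 0.193 (21.5 to 2.99 CPM). Most like *Anpep* were *Lipe*, the gene of hormone-sensitive lipase (0.0435, from 17.8 to 13.2 CPM), *Gm9869* (0.0458) and *Gm16144* (0.0516). These genes had far higher levels than *Enpep* or lower ones than *Anpep* and resemble them in shape only.

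The remaining genes of angiotensin and kinin metabolism were tested with edgeR's quasi-likelihood test, adjusted over all genes. Of 19 genes listed, 14 were tested, 6 were higher and 5 lower, with a median log2 fold change of 0.10. Over all genes fitted, 20.9% were called higher and 20.3% lower. *Mas1*, a receptor gene of the angiotensin system, fell from 2.91 ± 0.266 to 1.63 ± 0.265 CPM (log2 fold change −0.84 ± 0.15, adjusted p = 5.91e-06). The bradykinin receptor genes rose, *Bdkrb2* from 4.40 ± 0.183 to 10.3 ± 0.793 CPM (1.23 ± 0.08, adjusted p = 1.18e-16) and *Bdkrb1* from 0.643 ± 0.174 to 1.12 ± 0.14 CPM (0.81 ± 0.23, adjusted p = 0.00358). The 4 cultures of each group did not overlap for any of these receptors, which was also so for 37.9% of all genes fitted. *Ren1*, the renin gene, had at most 4 counts in any culture and was not tested, nor were *Agtr1b*, *Ctsg* and *Klk1*.

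Other changes in that list were smaller. *Kng1*, a kininogen gene, fell by 0.51 ± 0.06 on the log2 scale (adjusted p = 1.37e-06) and *Kng2* was at −0.04 ± 0.05, but the pair share 17.2% and 19.4% of their 50-base words, so their split is uncertain. *Agtrap*, whose product binds the AT1 receptor, fell by 0.27 and *Atp6ap2*, the prorenin receptor gene, rose by 0.18. Among genes for soluble or lysosomal peptidases, *Nln* (0.36), *Prep* (0.26) and *Thop1* (0.10) rose, and *Ctsd* (−0.16) and *Rnpep* (−0.16) fell. *Prcp* (0.10, adjusted p = 0.056) and the mast cell chymase gene *Cma1* (0.37 ± 0.41, adjusted p = 0.52) did not pass the edgeR test. Of 16 genes that relay AT1 receptor signals, all tested, 3 were higher and 5 lower, beside 20.9% and 20.3% of all genes fitted. The largest differences among them were those of *Plcb4* (−0.45), *Arrb1* (−0.37) and *Plcb1* (−0.24).

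The relatives of the member peptidases were read the same way. They are not a background for the 6 lower members, which were chosen with this contrast known. Of 8 other M1 aminopeptidase genes, 7 were tested, 2 were higher and 3 lower, led by *Erap1* (−0.43), *Npepps* (0.22) and *Rnpep* (−0.16). In the neprilysin family of *Mme*, 4 of 6 genes were tested. *Mmel1* rose by 1.22 ± 0.28 (edgeR adjusted p = 0.000368) but was scarce, at 0.346 CPM with vehicle and 0.807 with TGF-β1. Its counts were 18, 17, 11 and 18 with vehicle and 37, 36, 40 and 36 with TGF-β1. *Phex* rose by 0.56, from 1.03 to 1.53 CPM, and *Ece1* fell by 0.33. In the *Dpp4* family, 7 of 8 were tested, 2 were higher and 2 lower, led by *Prep*, *Prepl* (−0.20) and *Dpp7* (−0.12), while *Fap* was at −0.09 ± 0.11 (adjusted p = 0.567). Of 18 other surface or secreted peptidase genes, 15 were tested, 6 were higher and 7 lower. Their largest change was in *Xpnpep2*, a membrane aminopeptidase that cuts before proline. It fell from 3.49 ± 0.322 to 0.666 ± 0.173 CPM (log2 fold change −2.38 ± 0.17, edgeR adjusted p = 6.69e-16). *Ggt1* (1.22, from 0.222 to 0.519 CPM) and *Ggt5* (−1.21, from 0.895 to 0.386 CPM) followed, both at low levels. With a culture left out, *Ggt5* ranged from −1.74 to −0.91. Over all pathway lists, angiotensin and AT1 receptor lists included and each gene counted once, 20 of 61 tested genes were higher and 22 lower. The shares over all genes fitted were 20.9% higher and 20.3% lower. The median log2 fold change over the 61 was −0.02.

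**Figure D4:**
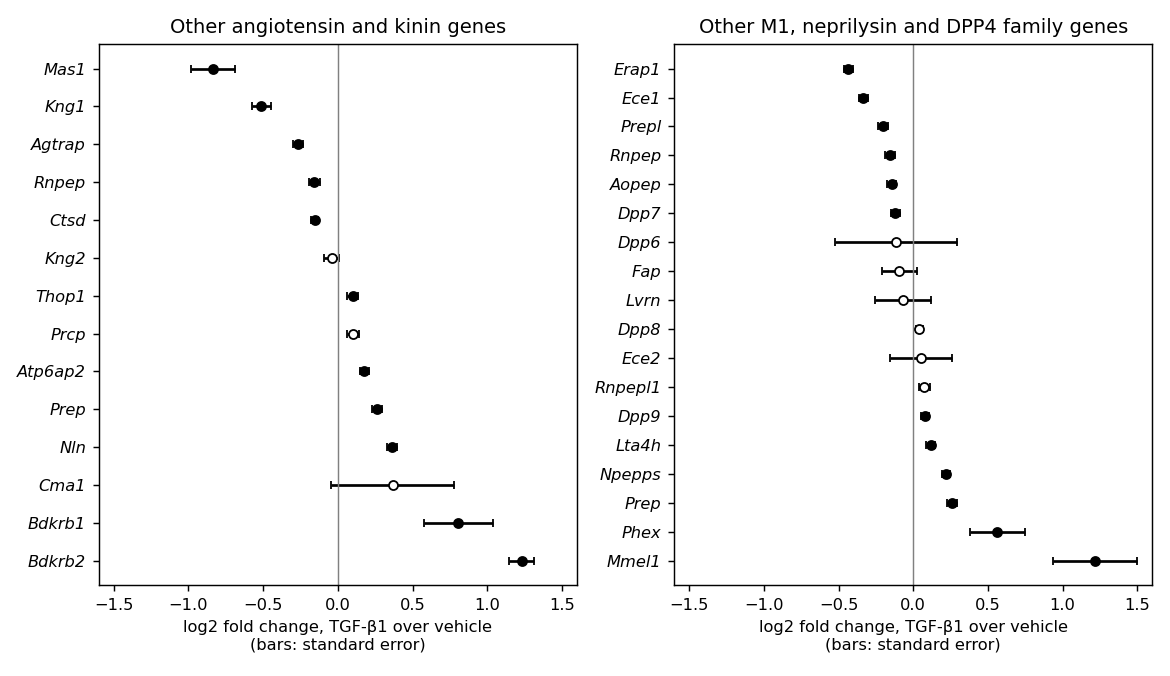
Log2 fold changes of TGF-β1 over vehicle (x axis) with standard errors for the other angiotensin and kinin genes (left) and the other M1, neprilysin and DPP4 family genes (right), filled where the edgeR adjusted p was under 0.05. *Mas1* (−0.84) and *Bdkrb2* (1.23) lie at the ends of the left panel, and *Erap1* (−0.43) and *Mmel1* (1.22) at the ends of the right panel.

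Marker lists of cell types were summed in each culture beside the members. The calls counted for each list stand beside 20.9% higher and 20.3% lower over all genes fitted. The summed CPM of the 14 pericyte markers listed, of which *Anpep* is one, was 579 to 598 with vehicle and 759 to 787 with TGF-β1, with *Pdgfrb* (202 and 291 CPM) and *Cspg4* (82.8 and 169 CPM) a large part of the sum. Of the 11 tested, 5 were higher, *Pdgfrb* (0.53) and *Cspg4* (1.03) among them, and 3 were lower, *Anpep* and *Rgs5* (−2.02) among them, with a median log2 fold change of −0.02 over the 11. Meningeal fibroblast markers summed to 649 to 660 with vehicle and 429 to 465 with TGF-β1 (4 of 5 tested lower, the other not called). Of the lower ones, *Ogn* went from 173 to 49.6 CPM (−1.80), while *Tbx18* (−0.42), *Foxc1* (−0.31) and *Zic1* (−0.16) differed less. Fibroblast markers summed to 4486 to 4710 and 6556 to 6833 (3 of 7 higher, 1 lower, *Pdgfra* at 0.01 ± 0.03). The higher ones were the collagen genes *Col1a1* (1586 and 2522 CPM), *Col1a2* (2119 and 2849) and *Col3a1* (801 and 1247), most of the sum. *Col1a1* is also in the list of TGF-β response genes below. *Dcn* (−0.16) was the lower one, and *Fap* and *Pi16* were not called. Smooth muscle markers summed to 817 to 888 and 769 to 801 (1 of 5 higher, 1 lower). *Acta2* (730 and 715 CPM, not called) was most of that sum. The lower gene was *Smtn* (125 and 61.5 CPM, −1.02) and the higher one *Cnn1* (0.36). Endothelial markers summed to 493 to 506 and 494 to 517 (2 of 8 higher, 2 lower), with *Pecam1* at 1.11 and 1.10 CPM. Astrocyte markers summed to 251 to 263 and 227 to 238 (2 of 7 higher, 2 lower). In that list *Gfap* was at 0.878 and 0.946 CPM and *Gja1* at 195 and 190 CPM. *Slc1a2* (−1.24) and *S100b* (−1.55) were the 2 lower ones, and the 2 that went the other way are not named here. Macrophage and microglia markers summed to 109 to 114 and 108 to 110 (1 of 7 tested higher, the others not called), of which *Tmem119* was 102 and 98.4 CPM. *Ptprc* was at 0.726 and 0.758 CPM, *C1qb* at 0 counts in every culture, and *Csf1r* (0.73) was the gene called higher. Neuron and oligodendrocyte markers summed to 6.33 to 7.92 and 7.52 to 8.48 (1 of 5 tested higher, the others not called). Markers beyond the defining ones were named after their values were seen. The part of these cell types in the differences of the members was not tested. Of 9 genes known to respond to TGF-β, 8 were higher and *Tgfbi* was lower.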

How the data were processed

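The authors deposited raw read counts per Ensembl gene for 8 cultures, without normalization. According to the methods of the study, reads were aligned to mm10 with STAR 2.7.5c, duplicates removed with SAMtools 1.15 and reads counted with featureCounts 2.0.3. The strand setting and the annotation release were not given in the sources used here. A reference list of gene names gave a symbol for 54409 of the 54532 identifiers, and GENCODE M21 (GRCm38) gave coordinates for 54495.

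The counts were analysed with edgeR 4.0.16 in R 4.3.3 (filterByExpr, TMM factors, robust dispersions, quasi-likelihood test), with Benjamini-Hochberg adjustment over 22544 genes and a threshold of 0.05. The cultures were compared as unpaired groups, and p-values weigh the difference between the groups against the spread between these cultures. CPM used TMM-scaled totals, and CPM per kb the merged exons of a gene. Floors cover counting error only. Replicates of a group differed by more than the sampling noise of independent counts (chi-square per degree of freedom 2.21 to 3.69). Counting both reads of a pair would also raise this value, so the part due to differences between cultures is not known. The code was tested on simulated data. The alternatives were DESeq2 1.42.0, other scalings, other filters, halved counts and each culture left out.

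The members and gene lists were chosen with earlier results of these data known. The text names all members, the other angiotensin and kinin genes, the 3 called genes of each other pathway list with the largest log2 fold change in size, defining markers, and the 3 genes of at least 1 CPM most like *Enpep* or *Anpep* (log2 CPM with a prior count of 2). Some genes under this rule are not reported here. Promoter windows came from RefSeq on GRCm38.p6. *Agtr1a* had no window. Protein sequences were not used here.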

Additional observations from a re-analysis of the deposited data

Results flagged for a closer look

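A culture stood apart from the other 3 of its group by Dixon's criterion in 7 of the 68 groups of 4 examined, beside 3.4 that chance gives at 1 in 20. The only member among them was *Enpep*, at 0.218 CPM in TGF-β1 replicate 7 with the nearest culture at 0.174, a gap of 2 counts. In vehicle replicate 3, *Nln* was at 46.7 CPM (nearest 44.2), *Bdkrb2* at 4.67 (nearest 4.33) and *Mmel1* at 0.231 (nearest 0.373). *Ctsd* was at 507 CPM in vehicle replicate 1 (nearest 526), *Erap1* at 104.6 in vehicle replicate 2 (nearest 109.9) and *Xpnpep2* at 3.01 in vehicle replicate 4 (nearest 3.62).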

How the results depend on the processing

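The 6 lower members were called lower under each alternative that tested them. *Enpep* ranged from −3.43 to −3.26, *Agt* from −2.29 to −1.76, *Ace* from −1.24 to −1.15, *Mme* from −0.75 to −0.65, *Anpep* from −0.46 to −0.36 and *Lnpep* from −0.26 to −0.22 on the log2 scale. With at least 10 counts required in every culture, *Enpep*, *Agt* and *Dpp4* were not tested, and 4 members were called lower. The number called higher was 0 with that filter, with DESeq2 and with halved counts, where *Dpp4* was not tested, and 0 to 1 with each culture left out. *Dpp4* was at 1.09 with DESeq2 and ranged from 0.85 to 1.40 with a culture left out. Its call was lost without vehicle replicate 1 (0.85), 3 (1.08) or 4 (1.04) and without TGF-β1 replicate 6 (1.03), 7 (0.86) or 8 (1.05). The 20 higher and 22 lower pathway genes ranged from 18 to 22 and from 21 to 24. *Kng2*, never called, ranged from −0.070 to 0.0065 with a culture left out and changed sign without TGF-β1 replicate 8. *Thop1* lost its call without TGF-β1 replicate 7 (0.08) and with every gene of at least 1 count tested (0.09), and *Phex* lost its call without TGF-β1 replicate 8 (0.47). *Prcp* passed without vehicle replicate 4 (0.12) and with DESeq2 size factors (0.11). The order of the members by level per kb was the same with the longest transcript as length. No paired analysis was possible because the labels number the vehicle cultures 1 to 4 and the TGF-β1 cultures 5 to 8, with no shared numbers, although the methods describe isolates that received both treatments. Depth limits *Agtr1a* and *Agtr2*, and halved counts apply where both reads of a pair were counted.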

Other observations

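Among the endothelial markers, *Cdh5*, the gene of VE-cadherin, was at 375 ± 6.23 CPM with vehicle and 367 ± 12.9 with TGF-β1, while *Pecam1* was at 1.11 and 1.10 CPM and *Cldn5* had at most 10 counts in any culture. Other genes of the list were detected at levels between these, with *Flt1* at 81.6 and 99.1 CPM (called higher, 0.28), *Kdr* at 17.9 and 18.6 and *Ly6c1* at 17.9 and 14.2 (called lower, −0.33). *Cdh5* was singled out after its values were seen, and its log2 fold change was −0.03 ± 0.02 (edgeR adjusted p = 0.342). *Bace2*, a membrane aspartyl peptidase gene and also chosen after its values were seen, fell from 50.01 ± 1.73 to 23.7 ± 2.03 CPM. Its log2 fold change was −1.08 ± 0.05 (edgeR adjusted p = 4.98e-22), with 4 of 4 TGF-β1 cultures lower than every vehicle culture. Groups without overlap, in either direction, were seen for 37.9% of all genes fitted. The related gene *Bace1* rose by 0.12 (edgeR adjusted p = 0.0011). Of the *Bace1* exon bases, 32.5% overlap genes on the other strand, and the strand setting of the counting was not stated.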
